A study of Homo sapiens with 2 samples.

Results

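The 10 genes described here encode 9 members of the BCL2 family and APAF1, and were chosen by name from a table of 39720 gene symbols. The table compares A549 cells, an established human lung adenocarcinoma line, after infection with lentivirus for a short hairpin RNA against DEPDC1B (shDEPDC1B) with the same cells after infection with lentivirus for a negative control hairpin (shNC). Both groups received 5 µg/mL polybrene, grew in DME-F12 medium with 10% fetal bovine serum and were collected for RNA on day 2. There is 1 library per group, of 18862371 counts for shDEPDC1B and 18647290 counts for shNC. No selection for infected cells is described in the labels, and the sources used here do not give the hairpin sequences. The study set out to learn the function of DEPDC1B in this tumour type, and setting the libraries side by side shows which transcripts differed after its knockdown. There are no replicates, so no value below has a replicate check, and a difference is one between 2 libraries rather than between conditions.

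BCL2 family proteins decide whether the outer membrane of the mitochondrion is breached during apoptosis. Pro-survival members such as BCL-XL (gene BCL2L1) and MCL1 hold the pore-forming members BAX and BAK1 in check, and the BH3-only members BIM (BCL2L11), BID, BAD, PUMA (BBC3) and NOXA (PMAIP1) start the process by binding to either. Once cytochrome c has left the mitochondrion it binds APAF1, which assembles into the apoptosome and activates caspase 9. Lung adenocarcinoma cells often rely on BCL-XL and MCL1 for survival.

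PMAIP1 and APAF1 were lower in the shDEPDC1B library by more than 2-fold, BCL2L11 and BCL2L1 by more than 1.5-fold, and BID and BAK1 were higher by more than 1.5-fold. MCL1, BAD, BBC3 and BAX lay within 1.5-fold. In RNA from whole cultures, fewer cells that express a gene and less of its RNA per cell cannot be told apart. All 10 genes had at least 30 counts in the higher library, the minimum set for a gene to be assessed. A gene was counted as higher or lower when its ratio of scaled counts, shDEPDC1B over shNC, was at least 1.5-fold and the exact 95% interval of counting error excluded equality. By this rule 2 of the 10 were higher and 4 were lower, against 19.2% higher and 19.6% lower among all 13850 assessed genes. The count of higher members is therefore close to the share among all genes. With the libraries scaled by their totals, 2029 of all assessed genes were higher and 3207 lower, against 2662 and 2708 with trimmed means. At 2-fold none of the members were higher and 2 were lower, against 5.86% and 8.97% of all assessed genes. The median log2 ratio of the members was -0.24, beside 0.04 for all assessed genes. The intervals of 9 of the 10 excluded equality, as did those of 73.8% of all assessed genes, so that a counting interval alone sets few genes apart here. Intervals are given in square brackets, are exact 95% intervals throughout and cover counting error only.

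The hairpin target checks the labels. DEPDC1B had 39 counts in shDEPDC1B, against 329 in shNC, which is 12.5% of the shNC level [8.75, 17.5]. Keratins of simple epithelia were abundant in both libraries, with KRT8 at 5674 and 5498 scaled counts per 1e6 (CPM) in shDEPDC1B and shNC. EPCAM had only 65 and 37 counts. The summed levels of 6 leukocyte markers were 48.0 CPM in shDEPDC1B and 49.3 CPM in shNC, those of 6 fibroblast markers 12.1 and 10.0 CPM, and those of 5 endothelial markers 29.6 and 15.3 CPM. Most of the endothelial sum came from EGFL7, with 530 and 282 counts. The leukocyte sum came mostly from CD68, with 495 and 690 counts in shDEPDC1B and shNC, ITGAM, with 203 and 154, and CD14, with 175 and 107. The fibroblast sum came mostly from COL1A1, with 105 and 99 counts, and COL3A1, with 105 and 80. Some markers of these lists were thus detected, whereas CD3E, DCN and KDR had 0 counts in both libraries, which allows up to 3 counts each.

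The regions before the starts of 4 of these genes are shown because they belong to the 3 most lowered members and to BAX, whose level per kilobase of transcript ranked first in both libraries, in shNC with an interval that overlaps that of BCL2L1, as 250 bases before the RefSeq start (GRCh38.p14, plus strand in each case, 5′ to 3′). PMAIP1 lies at chr18:59899746-59899995, APAF1 at chr12:98645040-98645289, BCL2L11 at chr2:111120664-111120913 and BAX at chr19:48954625-48954874. Capitals mark the cyclic AMP response element core TGACGT, the forkhead core GTAAACA and the E-box CACGTG on either strand.
PMAIP1: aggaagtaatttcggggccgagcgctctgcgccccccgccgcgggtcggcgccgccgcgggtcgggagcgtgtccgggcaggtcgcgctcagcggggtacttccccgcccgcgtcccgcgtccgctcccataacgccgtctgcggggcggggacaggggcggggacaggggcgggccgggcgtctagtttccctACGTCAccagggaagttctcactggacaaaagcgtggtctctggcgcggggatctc
APAF1: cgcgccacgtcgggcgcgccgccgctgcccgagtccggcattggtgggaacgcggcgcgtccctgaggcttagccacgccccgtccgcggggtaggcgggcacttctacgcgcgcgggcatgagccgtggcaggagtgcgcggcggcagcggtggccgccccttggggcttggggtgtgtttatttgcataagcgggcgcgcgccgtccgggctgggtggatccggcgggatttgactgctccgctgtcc
BCL2L11: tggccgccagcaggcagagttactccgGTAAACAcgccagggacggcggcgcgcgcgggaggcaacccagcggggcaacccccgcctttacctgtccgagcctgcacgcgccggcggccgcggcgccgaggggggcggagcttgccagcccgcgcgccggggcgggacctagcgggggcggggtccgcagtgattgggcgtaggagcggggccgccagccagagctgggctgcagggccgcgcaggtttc
BAX: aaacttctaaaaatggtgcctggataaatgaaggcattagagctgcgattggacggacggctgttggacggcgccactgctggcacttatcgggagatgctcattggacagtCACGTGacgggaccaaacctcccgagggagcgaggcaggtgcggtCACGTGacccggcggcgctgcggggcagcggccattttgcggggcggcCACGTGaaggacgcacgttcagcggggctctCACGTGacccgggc

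The table of starts held 9 of the 10 genes, with 15 starts in all. TGACGT, which CREB and ATF factors bind, was found once before PMAIP1, with its first base 56 bases before the start, and before both starts of BAD. It was present in 7.10% of the 35116 windows of the same length in the table. GTAAACA, which FOXO factors bind, was found once before BCL2L11, with its first base 223 bases before the start, and was present in 2.98% of all windows. CACGTG, which MYC, MAX and USF factors bind, occurred 4 times before BAX, and 0.0142% of all windows held 4 or more. It also occurred once before BBC3 and before 2 of the 5 starts of BID. The window of APAF1 held none of these cores, and 1 match to the GC box GGGCGG, which was present in 42.6% of all windows. In the other windows printed the GC box, not marked by capitals, occurred 4 times before PMAIP1, 3 times before BCL2L11 and once before BAX. The motifs do not overlap in the windows printed. A match of letters is a description and does not show that a factor binds.

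Of the pro-survival genes, BCL2L1 was lower and MCL1 lay close to equality. BCL2L1 (chromosome 20, 31664452 to 31723989, minus strand, GENCODE 29 on GRCh38), which encodes BCL-XL, had 3363 counts in shDEPDC1B and 5556 in shNC, or 184.3 and 288.2 CPM. Its level in shDEPDC1B was 64.0% of that in shNC [61.3, 66.8], a log2 ratio of -0.64 [-0.71, -0.58]. Of all assessed genes 18.2% had a ratio as low or lower. MCL1 (chromosome 1, 150574551 to 150579738), a short-lived guardian that binds BAK1 and NOXA, had 4730 and 5682 counts in shDEPDC1B and shNC, or 259.3 and 294.7 CPM. The log2 ratio of MCL1 was -0.18 [-0.24, -0.13], a difference beyond counting error that did not reach 1.5-fold. The number of BCL2L1 counts for each MCL1 count was 0.711 in shDEPDC1B and 0.978 in shNC, a ratio of 0.727 [0.686, 0.771], which does not depend on how the libraries are scaled. Both genes make splice forms of opposite function, BCL-XS and MCL1S, and counts per gene do not tell these from the long forms.

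The BCL2L1 locus also carries ABALON, an antisense long noncoding RNA that shares 1424 exon bases with BCL2L1 on the opposite strand. ABALON, taken up after its values were seen, had 124 counts in shDEPDC1B and 453 in shNC, 28.9% of the shNC level [23.5, 35.4]. The sources used here do not say whether the libraries kept strand, so reads of the shared bases cannot be told apart between the 2 genes. ABALON had fewer counts than BCL2L1 in both libraries, but both counts may depend on how reads of the shared bases were divided. The BCL2L1 count is therefore uncertain.

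The pore-forming genes of the set, BAK1 and BAX, were both higher in shDEPDC1B, BAK1 past 1.5-fold and BAX short of it. BAK1 (chromosome 6, 33572547 to 33580293, minus strand) had 674 counts in shDEPDC1B and 456 in shNC, or 36.9 and 23.7 CPM. Its ratio was 1.56-fold [1.39, 1.76], and 83.2% of all assessed genes had a ratio at or below it. With the libraries scaled by their totals the log2 ratio of BAK1 was 0.55 in place of 0.64, below the 1.5-fold line. A linear fit on transcript length and GC content was made over assessed genes with a known length. With this fit subtracted, BAK1 came to 0.30, also within 1.5-fold, and BAX turned to -0.06 [-0.13, 0.00]. BAX (chromosome 19, 48954815 to 48961798) had 4034 counts in shDEPDC1B and 3042 in shNC, or 221.1 and 157.8 CPM. BAX was 1.40-fold higher [1.34, 1.47], and 75.1% of assessed genes had a ratio at or below it. BOK, a related gene outside the set, went the other way, with 337 counts in shDEPDC1B and 507 in shNC. The log2 ratio of BOK was -0.51 [-0.71, -0.31], within 1.5-fold, and came to -0.92 after the same fit, past it. The number of BAK1 counts per BAX count was 0.167 and 0.150 in shDEPDC1B and shNC, a ratio of 1.11 [0.979, 1.27] whose interval holds equality.

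**Figure D1:**
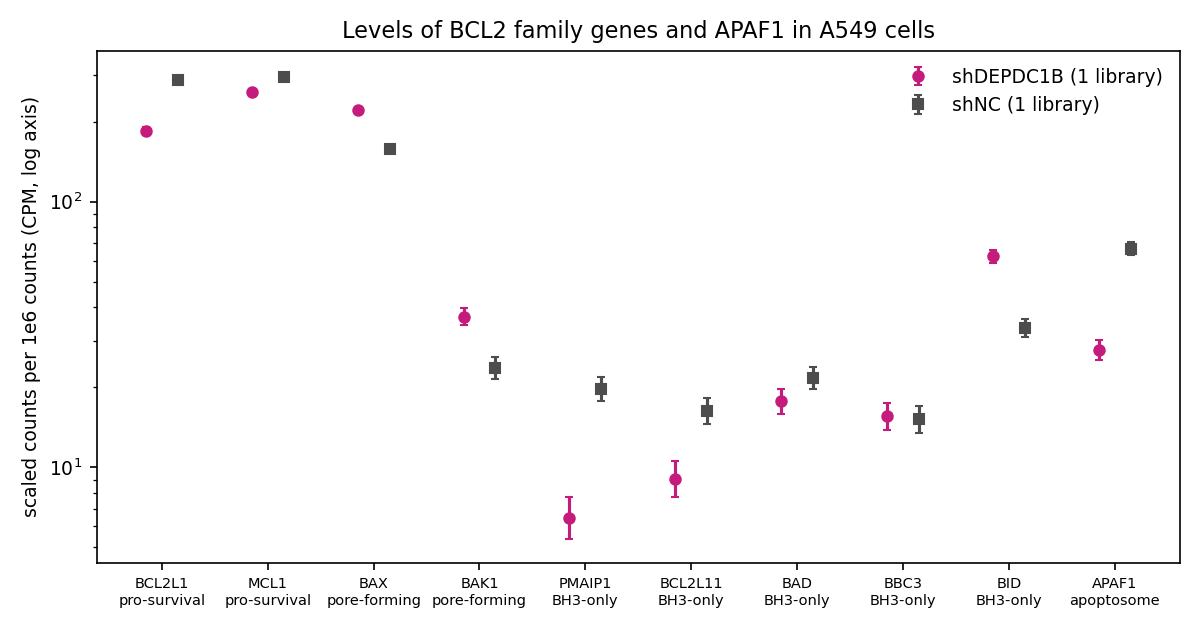
Scaled counts per 1e6 counts of the 10 genes (log axis), with shDEPDC1B as circles left of shNC as squares and exact 95% counting intervals as bars, 1 library each. BCL2L1, PMAIP1, BCL2L11 and APAF1 sit lower in shDEPDC1B, and BAX, BAK1 and BID sit higher.

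Set against BCL2L1, both pore-forming genes shifted. There were 1.20 BAX counts for each BCL2L1 count in shDEPDC1B and 0.548 in shNC, a ratio of 2.19 [2.05, 2.34]. For BAK1 the same numbers were 0.200 and 0.082, a ratio of 2.44 [2.15, 2.78]. These ratios hold within each library and show that the genes differed unequally between the 2 libraries, not which of them differed. Their intervals cover counting error only, and the length and GC fit was not applied to them. After that fit the log2 ratios were -0.06 for BAX, 0.30 for BAK1 and -0.88 for BCL2L1.

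The BH3-only genes went both ways. PMAIP1 (chromosome 18, 59899948 to 59904306), which encodes NOXA, a selective partner of MCL1, had 118 counts in shDEPDC1B and 381 in shNC, or 6.47 and 19.8 CPM. It fell to 32.7% of the shNC level [26.4, 40.3], a log2 ratio of -1.61 [-1.92, -1.31], the lowest of the 10 genes. Only 2.58% of all assessed genes had a ratio as low or lower. There were 0.025 PMAIP1 counts per MCL1 count in shDEPDC1B and 0.067 in shNC, a ratio of 0.372 [0.299, 0.460].

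BCL2L11 (chromosome 2, 111119378 to 111168447) encodes BIM, which binds every pro-survival member. It had 165 counts in shDEPDC1B and 314 in shNC, or 9.04 and 16.3 CPM, and its log2 ratio was -0.85 [-1.13, -0.57], or -0.57 after the length and GC fit, within 1.5-fold. Its exons share 727 bases with the noncoding gene MIR4435-2HG on the opposite strand, which had 542 and 522 counts and a log2 ratio of 0.13 [-0.04, 0.31]. Without knowledge of strand, reads of these shared bases cannot be told apart, so the BCL2L11 count is uncertain. BID (chromosome 22, 17734138 to 17774770, minus strand), which caspase 8 cuts to link death receptors to mitochondria, went the other way. It had 1135 counts in shDEPDC1B and 647 in shNC, or 62.2 and 33.6 CPM. BID was 1.85-fold higher [1.68, 2.05], the highest ratio of the 10, and 92.0% of all assessed genes had a ratio at or below it. The number of BID counts per BCL2L11 count was 6.88 in shDEPDC1B and 2.06 in shNC, a ratio of 3.34 [2.69, 4.15].

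BAD and BBC3 did not reach 1.5-fold before the length and GC fit. BAD (chromosome 11, 64269830 to 64284704, minus strand), whose protein is held inactive by phosphorylation and 14-3-3 binding, had 323 and 419 counts in shDEPDC1B and shNC. Its log2 ratio was -0.30 [-0.51, -0.08], and -1.06 after the fit. BAD exons share 404 bases with GPR137 on the opposite strand, which had 773 and 356 counts in shDEPDC1B and shNC, a log2 ratio of 1.20 [1.02, 1.38]. Reads of the shared bases cannot be told apart here without knowledge of strand, so the BAD count is uncertain. BBC3 (chromosome 19, 47220822 to 47232766, minus strand), which encodes PUMA, had 285 and 293 counts in shDEPDC1B and shNC. Its log2 ratio was 0.04 [-0.20, 0.28], an interval that holds equality. Scaling by library totals turned its sign (-0.06), and the length and GC fit took it to -0.60 [-0.84, -0.36].

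APAF1 (chromosome 12, 98645141 to 98735433), the scaffold of the apoptosome, had 504 counts in shDEPDC1B and 1283 in shNC, or 27.6 and 66.5 CPM. It fell to 41.5% of the shNC level [37.4, 46.1], a log2 ratio of -1.27 [-1.42, -1.12], and 5.09% of all assessed genes had a ratio as low or lower. CASP9, the caspase that APAF1 activates, had 437 counts in shDEPDC1B and 260 in shNC, a log2 ratio of 0.83 [0.60, 1.06]. There were 1.15 APAF1 counts per CASP9 count in shDEPDC1B and 4.93 in shNC, a ratio of 0.234 [0.193, 0.282]. APAF1 exons share 750 bases with ANKS1B on the opposite strand, which had about 23 and 37 counts.

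**Figure D2:**
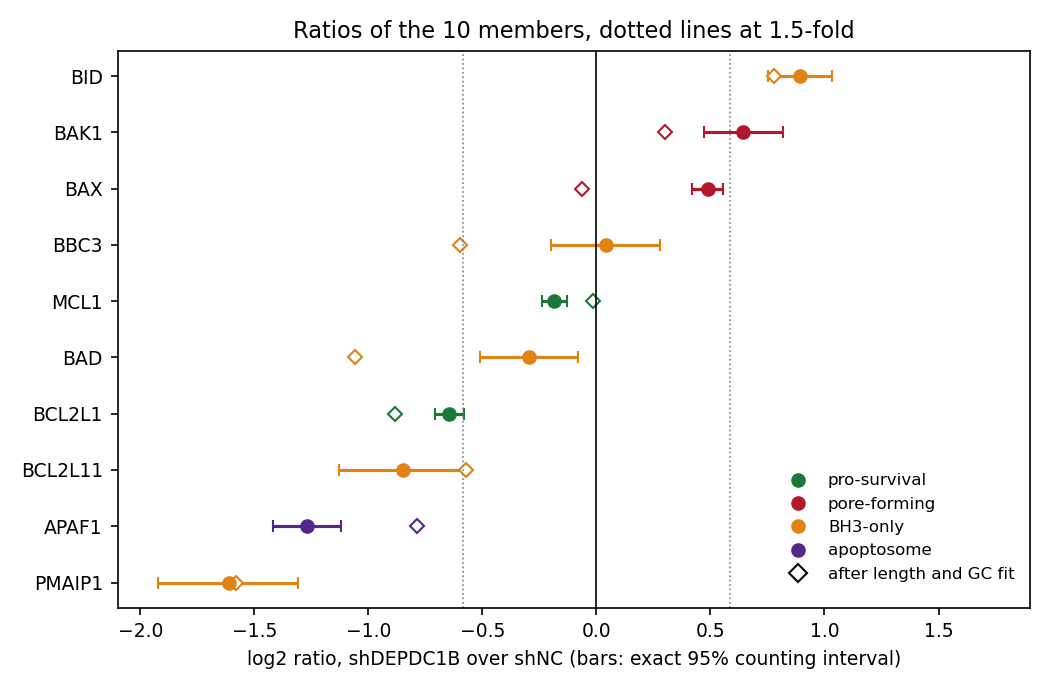
Log2 ratio of each gene, shDEPDC1B over shNC (filled circles, exact 95% counting intervals). Open diamonds give the same ratio after a fit on transcript length and GC content over assessed genes with a known length. PMAIP1, APAF1 and BCL2L1 lie below the lower 1.5-fold line and BID above the upper one on both scales, BAK1 and BCL2L11 only before the fit, and BAD and BBC3 only after it.

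The order of levels was compared as CPM per kilobase of the longest coding transcript, which may not be the transcript the cells make. In shDEPDC1B BAX was highest at 162.8 CPM per kilobase, and BCL2L1 followed at 70.6 and MCL1 at 65.9. In shNC BAX at 116.2 and BCL2L1 at 110.4 CPM per kilobase had intervals that overlap, and MCL1 followed at 74.9. BID ranked above BAD in shDEPDC1B, at 24.9 and 15.3 CPM per kilobase, and below it in shNC, at 13.4 and 18.8. BAK1 stood at 16.7 CPM per kilobase in shDEPDC1B, where its interval overlaps that of BAD, and at 10.7 in shNC, where it overlaps that of PMAIP1. BBC3 was at 8.50 and 8.27 CPM per kilobase in shDEPDC1B and shNC. APAF1 and PMAIP1 had overlapping intervals in both libraries, at 3.92 and 3.32 CPM per kilobase in shDEPDC1B and at 9.43 and 10.1 in shNC. BCL2L11 was lowest in both, at 1.73 CPM per kilobase in shDEPDC1B and 3.11 in shNC.

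Summed per kilobase, the levels of BAX and BAK1 were 179.5 in shDEPDC1B and 126.9 in shNC, and those of BCL2L1 and MCL1 were 136.6 and 185.4. BAX made up most of the former sums, at 162.8 and 116.2, and its log2 ratio came to -0.06 after the length and GC fit. The sums were made without that fit and leave out family genes outside the set, such as BOK and BCL2L2. The sum over the 5 BH3-only genes was 53.8 in both libraries, although PMAIP1, BCL2L11 and, within 1.5-fold, BAD were lower and BID was higher.

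Transcript length moved with the ratio across all genes. When coding genes were divided by transcript length into 10 classes of equal size, the median log2 ratio was 0.58 in the shortest class and -0.63 in the longest. A linear fit on length and GC content took up 24.6% of the variance over assessed genes with a known length. PMAIP1, with a transcript of 1948 nucleotides, belongs to a class whose median log2 ratio was 0.43, and 0.977% of the genes in that class were as low or lower. After the fit PMAIP1 stood at -1.58. BCL2L1, of 2610 nucleotides, stood in a class with a median of 0.20, of which 7.41% were as low or lower, and was at -0.88 after the fit. APAF1, with the longest transcript of the 10 at 7055 nucleotides, came to -0.79 after the fit, and 8.14% of the genes of its class were as low or lower.

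For the other members the fit altered the place relative to 1.5-fold in 4 cases. BCL2L11, of 5231 nucleotides, came to -0.57 and BAK1, of 2212, to 0.30, both within 1.5-fold. BAD, the shortest at 1157 nucleotides, came to -1.06 and BBC3, of 1838 nucleotides and the highest GC content at 69.7%, to -0.60, both past 1.5-fold. BAX, of 1358 nucleotides, came to -0.06 [-0.13, 0.00], an interval that holds equality. BID was at 0.78, and MCL1 at -0.02 [-0.07, 0.04], an interval that also holds equality. The part that length and GC content have in these ratios was not tested further.

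**Figure D3:**
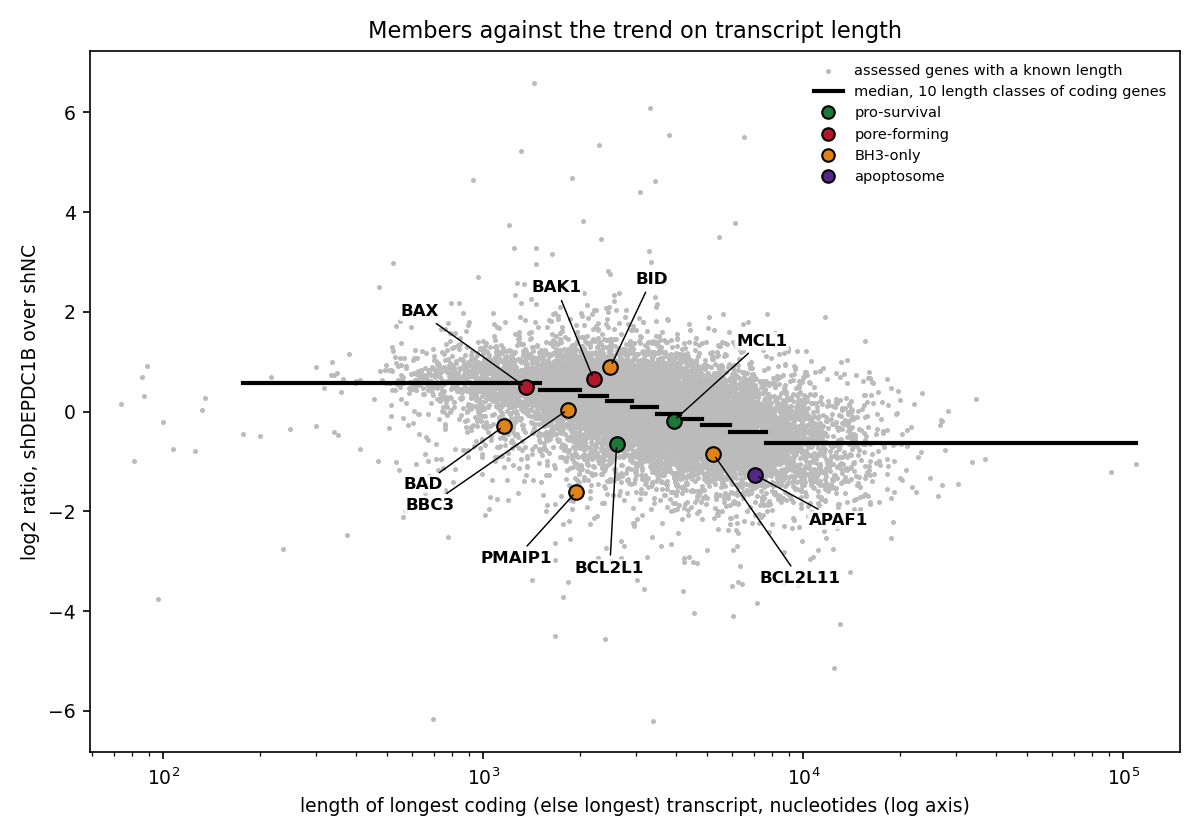
Log2 ratio, shDEPDC1B over shNC, against the length of the longest coding transcript (log axis) for assessed genes with a known length (grey points), with the median of each of 10 length classes of coding genes (black bars) and the 10 members in colour. PMAIP1, at 1948 nucleotides and -1.61, lies far below the bar of its class at 0.43, while BAX and MCL1 lie near theirs.

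Of 14 other genes of the BCL2 family 10 were assessed, with a median log2 ratio of 0.29, and 2 were higher and 1 lower by the same rule. BCL2L12 was at 1.12 [0.90, 1.34]. BIK, a BH3-only gene, had 32 and 15 counts in shDEPDC1B and shNC (1.17 [0.25, 2.16]), and BCL2L15 had 36 and 72 counts (-0.92 [-1.54, -0.32]). BCL2 itself had 44 and 33 counts and a ratio whose interval holds equality (0.49 [-0.19, 1.19]). BCL2A1 stood at 0.09 [-0.27, 0.45] and BCL2L2, which encodes the pro-survival protein BCL-W, at 0.27 [0.12, 0.43]. BCL2L2 shares exons with the read-through gene BCL2L2-PABPN1, which had 134 and 270 counts, so its count is uncertain. After the length and GC fit BCL2L12 stood at 0.69 and BCL2L15 at -1.25, BIK came to 0.53, within 1.5-fold, BCL2 to 0.92, past it, and BCL2A1 turned to -0.20. BMF, HRK, BCL2L10 and BCL2L14 had fewer than 30 counts in both libraries.

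Downstream of APAF1, 16 caspase, inhibitor of apoptosis (IAP) and mitochondrial factor genes were all assessed, with a median of -0.13. The serine protease gene HTRA2, whose product is released with cytochrome c and binds IAPs, was at 1.04 [0.87, 1.22], and CASP9 and the nuclease gene ENDOG (0.76 [0.51, 1.01]) were also higher. After the length and GC fit HTRA2 stood at 0.69 and CASP9 at 0.90, whereas ENDOG came to -0.03. Lower were XIAP, the direct caspase inhibitor, at -0.80 [-0.89, -0.70], and BIRC6, at -1.27 [-1.34, -1.20]. Both have long transcripts, of 8591 and 15703 nucleotides, and came to -0.18 and -0.48 after the fit, within 1.5-fold. The other 11 lay within 1.5-fold, among them the cytochrome c gene CYCS (0.12 [0.07, 0.17]). None of 10 death receptor genes reached 1.5-fold, with log2 ratios from -0.54 to 0.31 and a median of 0.04, although the intervals of 6 excluded equality. After the fit CFLAR, which encodes the caspase 8 regulator FLIP and was at -0.11 before it, came to 0.64. The voltage-dependent channel gene VDAC2, whose product holds BAK1 and BAX at mitochondria, was at 0.49 [0.44, 0.54], within 1.5-fold, and came to 0.26 after the fit. VDAC3 was at 0.30 [0.23, 0.37] and came to 0.06. VDAC1 went the other way, at -0.43 [-0.47, -0.39], and came to -0.59, past 1.5-fold.

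Of 9 genes of transcription factors known to induce members of the set, 8 were assessed, with a median of 0.20. FOXO3 and FOXO1, which induce BCL2L11, were lower at -1.48 [-1.71, -1.24] and -1.34 [-1.73, -0.97], with 200 and 588 counts of FOXO3 and 81 and 217 counts of FOXO1 in shDEPDC1B and shNC. They stood at -1.12 and -1.04 after the length and GC fit. DDIT3, which encodes the stress factor CHOP, was at 0.85 [0.50, 1.21] and its regulator ATF4, known to induce PMAIP1, at -0.27 [-0.36, -0.19]. After the fit DDIT3 came to 0.38, within 1.5-fold, and ATF4 to -0.61, past it.

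**Figure D4:**
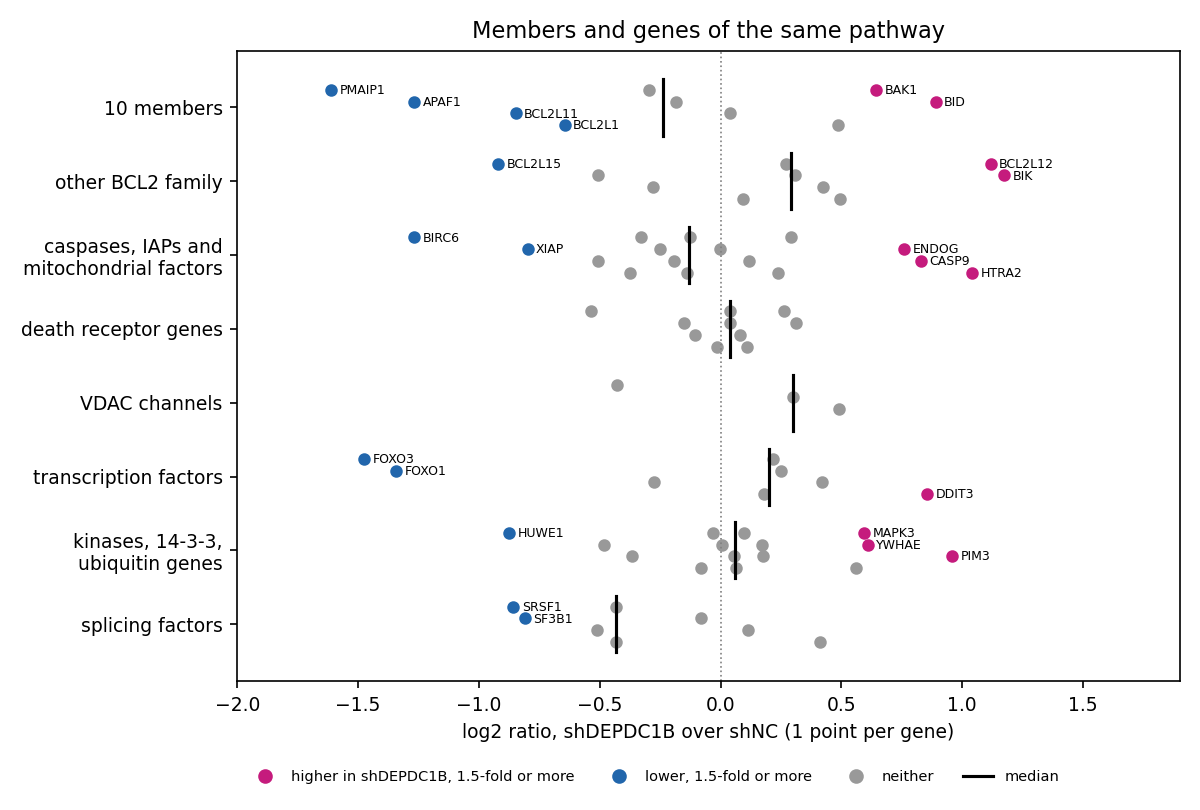
Log2 ratio, shDEPDC1B over shNC, of the assessed genes of the set and of 7 lists of related genes, with a bar at each median over the whole list (1 gene of the kinase list, lower by more than 1.5-fold, is not drawn). Genes higher by 1.5-fold or more are magenta, lower ones blue and the rest grey, and the death receptor list has no gene outside 1.5-fold.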

How the data were processed

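RNA was measured in 2 libraries of A549 cells, 1 for shDEPDC1B and 1 for shNC, grouped by the treatment label. The authors deposited estimated counts per gene symbol, not scaled for depth, and the submitters' processing notes name Bowtie2, RSEM and hg38. The sources used here give no versions, annotation or strandedness. RSEM divides reads that match several genes by a model, an error that counting intervals do not hold. The values of all 10 members were whole hundredths (tolerance 0.001), unlike averages over gene copies.

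Counts were rounded and scaled by trimmed means (TMM, edgeR 4.0.16, R 4.3.3), with factors of 0.967 for shDEPDC1B and 1.03 for shNC. With 1 library per group there is no test and no p-value. Each ratio has an exact 95% interval (Clopper-Pearson) derived from the portion of the gene's counts found in shDEPDC1B. Ratios between genes carry the exact conditional 95% interval of the odds ratio (SciPy 1.17.1), and levels an exact Poisson interval. No molecular identifiers are described, so intervals cover counting error only. Counts of 0 were replaced by a floor of 3 counts. Transcript length and GC content were those of the longest coding transcript in GENCODE 29, or of the longest one in genes without a coding transcript, known for 94.0% of assessed genes. The alternatives were DESeq2 1.42.0 size factors, other scalings, filters, thresholds and trend fits. The interval and call steps were tested on simulated data.

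All 10 members were named, and from each related list the genes past 1.5-fold, up to 4 by interval bound, and a few fixed genes, with lists of 5 or fewer changed genes named whole, apart from genes not reported here. Overlapping genes, BOK, CYCS, the VDAC genes, CFLAR, ATF4 and the cell markers named stand outside this rule and were chosen after their values were seen. The members and lists were chosen with earlier results of these data known.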

Additional observations from a re-analysis of the deposited data

How the results depend on the processing

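Over 9 other settings for the ratio of each member, 79 of 90 values kept their direction and their side of 1.5-fold. This held in each setting for PMAIP1 (-1.93 to -1.58), APAF1 (-1.36 to -0.79), BCL2L1 (-0.88 to -0.64), BID (0.69 to 0.91) and MCL1 (-0.28 to -0.02). For MCL1 the interval held equality after the fit on length and GC content, at -0.02 [-0.07, 0.04]. Most settings moved the values little, so the pooled count says little about stability. Most changes came from the 2 fits that use transcript length. The fit on length and GC content alone changed BCL2L11, BAD, BBC3, BAK1 and BAX. BBC3 was 0.04 and turned negative within 1.5-fold in 3 settings, with DESeq2 size factors (-0.01), library totals (-0.06) and the loess on length (-0.31). BAX was reversed by the fit on length and GC content, at -0.064 [-0.13, 0.00]. The count of higher members was 1 in place of 2 under library totals, a loess on length or the fit on length and GC content, each time without BAK1, and 0 at 2-fold. The count of lower members was 2 in place of 4 at 2-fold and 5 after either length fit. The median of the members was -0.59 with that fit and -0.45 with the loess. Among the 13020 assessed genes with a known length the length and GC fit left 1689 higher and 1755 lower. Without the fit, 2662 and 2708 of all 13850 assessed genes were higher and lower. DESeq2 size factors, upper-quartile factors, a prior count of 2, a minimum of 100 counts and no filter gave 2 higher and 4 lower members. Without rounding, a setting chosen after seeing the data for these values, the 7 ratios between genes stayed within their intervals. No paired analysis was possible because each group has 1 library. With 1 library each, variation between cultures is unknown, and the interval of BBC3 held equality except after the 2 length fits.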

Other observations

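Genes whose products act on these proteins after translation went both ways. Of 16 kinase, 14-3-3 and ubiquitin pathway genes 3 were higher and 2 lower by 1.5-fold or more, with a median log2 ratio of 0.06. MAPK3, which encodes ERK1, a kinase that acts on BIM, had 849 counts in shDEPDC1B and 594 in shNC (0.60 [0.44, 0.75]). The BAD kinase gene PIM3 was at 0.96 [0.77, 1.15] and the 14-3-3 gene YWHAE at 0.61 [0.56, 0.66]. After the length and GC fit MAPK3 came to 0.26, PIM3 to 0.48 and YWHAE to 0.54, all 3 within 1.5-fold. HUWE1, which encodes a ubiquitin ligase for MCL1, was at -0.87 [-0.92, -0.83], with a transcript of 14796 nucleotides, and came to -0.26 after the fit.

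Of 8 splicing factor genes known to act on BCL2L1 or MCL1 transcripts, none were higher and 2 were lower, with a median of -0.43. SRSF1 had 3424 counts in shDEPDC1B and 6559 in shNC (-0.86 [-0.92, -0.80]) and -0.71 after the fit. SF3B1 had 4952 and 9168 counts (-0.81 [-0.86, -0.76]) and came to -0.35. Splice forms of BCL2L1 and MCL1 were not analysed here.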
